A study of Mus musculus with 4 samples.

Results

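Genes of DNA replication and cell division were followed in the epidermis of newborn mice in which Skiv2l, the helicase gene of the cytoplasmic RNA exosome, was deleted in keratinocytes. They are 49 of the 54752 genes in the deposited tables, chosen by name: 25 act in S phase, when the DNA is copied, and 24 act in G2 and M phase, when the cell prepares to divide and divides. All 49 passed the filter on low values and are among the 13609 protein-coding genes tested. Total RNA was sequenced from the epidermis of 4 C57BL/6 pups on the day of birth (P0), with 2 Skiv2l ctl pups, called controls here, and 2 Skiv2l fl/fl K14-Cre pups, called knockouts here. In the knockouts the keratin 14 promoter drives a constitutive Cre recombinase, so the loxP-flanked Skiv2l alleles are cut in keratinocytes. By Western blot the study reported depletion of SKIV2L protein in P0 epidermis of this genotype. Whether the alleles remain intact in the other cells of the epidermis was not tested here. The study's control group takes in 3 genotypes, fl/fl and fl/+ pups without Cre and fl/+ pups with K14-Cre, so every control carries a floxed allele, and which of these each control pup carried is not given per sample. With 2 pups a group, the number of animals limits the precision of every value.

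A cell prepares to copy its DNA by loading the MCM helicase onto replication origins, a step called licensing, after which CDC45 and the GINS complex switch the helicase on and polymerases with their sliding clamp copy the strands. The genes for these steps are largely switched on at the end of G1 by the E2F transcription factors, whereas the cyclins, kinases and motor proteins of mitosis are switched on later, through the MuvB complex, B-MYB and FOXM1. In the epidermis the cells that divide are the keratinocytes of the basal layer and those of the growing hair follicles, and cells that move up from the basal layer leave the cell cycle.

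Promoter sequence was compared between the phases. The genes were chosen by name and not by motif, but the phases they act in are those that E2F and MuvB control. A difference in motifs between the phases is therefore not an independent finding. Of the 49 genes, 39 have at least 1 promoter window in RefSeq (GRCm38.p6), reaching from 250 bases before the start site to 50 bases after it. The others are Mcm4, Gins1, Gins2, Ccne2, Ccna2, Cdc25c, Foxm1, Aurkb, Kif20a and Tpx2. Both strands were searched for the E2F motif (TTTCCCGC or TTTGGCGC), for the CHR element that MuvB reads (TTTGAA or TTTAAA) and for the NF-Y box (CCAAT), and in no member did matches of different motifs share bases. The sites nearest the start are printed 5′ to 3′ on the strand of the gene, with the match in capitals and 10 bases on each side, for 7 of the 8 S phase genes that hold an E2F motif (in E2f2 the match lies too near the end of the window). They are shown because the E2F match was present in S phase genes and in no G2 and M phase gene with a window.
Mcm6: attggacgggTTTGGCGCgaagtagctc
Mcm3: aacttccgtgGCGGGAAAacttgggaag
Cdt1: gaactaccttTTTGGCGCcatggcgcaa
Pola1: tcatcacaggGCGCCAAAtgcactcccg
Mcm7: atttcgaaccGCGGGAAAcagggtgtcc
Mcm5: aagaactttcGCGCCAAAacgtccagcc
Cdc6: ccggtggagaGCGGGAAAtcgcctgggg

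The match of Mcm6 (chr1:128359735-128359762, minus strand) begins 47 bases before the start site, that of Mcm3 (chr1:20820276-20820303, minus strand) 19 bases after it and that of Cdt1 (chr8:122568037-122568064, plus strand) 32 bases after it. The sites of Pola1 (chrX:93632276-93632303, minus strand), Mcm7 (chr5:138172031-138172058, minus strand), Mcm5 (chr8:75109350-75109377, plus strand) and Cdc6 (chr11:98908003-98908030, plus strand) begin 138, 165, 149 and 138 bases before it. Mcm6 holds a further copy upstream, so that the 130 bases before its start site (chr1:128359706-128359835, minus strand) carry 2 E2F matches, beginning 110 and 47 bases before the start.
Mcm6 promoter: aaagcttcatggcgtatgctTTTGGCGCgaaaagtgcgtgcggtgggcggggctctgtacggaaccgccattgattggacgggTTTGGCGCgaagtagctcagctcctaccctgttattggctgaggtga

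The CHR element is shown in the same way for the 6 G2 and M phase genes with the largest falls among those that hold it, leaving out Bub1b, in which the match lies too near the end of the window. In all 6 it lies within 98 bases of the start site.
Kif23: gattggcctgTTTGAAatgcgccggg
Mki67: gccgttttggTTTGAAtcgggcgggc
Ttk: gcggggaaatTTCAAAcgtgtttccg
Cenpf: cggcgggcagTTTGAAtcgctcgtgc
Ccnb2: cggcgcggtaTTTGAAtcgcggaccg
Top2a: tagataaaggTTCAAAtgaaactagg

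These matches begin 2 bases after the start site in Kif23 (chr9:61946782-61946807, minus strand), 7 after it in Ttk (chr9:83834686-83834711, plus strand), 2 after it in Cenpf (chr1:189688069-189688094, minus strand) and 4 after it in Ccnb2 (chr9:70421535-70421560, minus strand). In Top2a (chr11:99024197-99024222, minus strand) the element begins 23 bases before the start, and in Mki67 (chr7:135716462-135716487, minus strand) 98 bases before it. Over the whole lists, the E2F motif was in a window of 8 of the 21 S phase genes that have one (38.1%) and of 0 of the 18 such G2 and M phase genes, against 3.28% of the 10534 tested genes with a window and 1.56% of all 32851 windows. The CHR element was in 7 of the 21 S phase genes (33.3%) and 16 of the 18 G2 and M phase genes (88.9%), against 22.7% of the tested genes and 27.6% of all windows. NF-Y boxes were found in 14 S phase genes (66.7%) and 16 G2 and M phase genes (88.9%), against 42.8% of the tested genes and 37.4% of all windows. A match of these letters is a description of the window and does not show that a factor binds there.

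**Figure D1:**
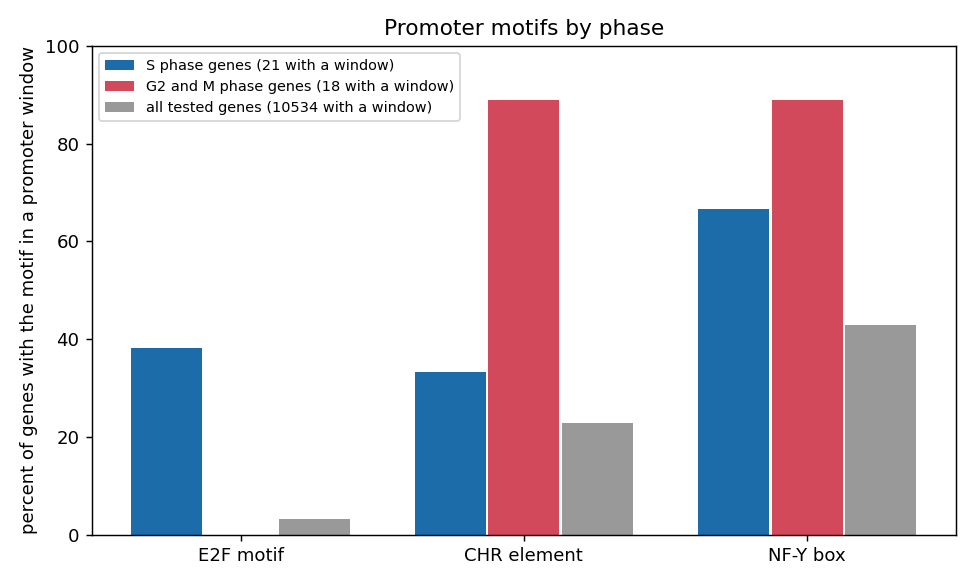
Percent of genes with each motif in a RefSeq promoter window, for the S phase genes, the G2 and M phase genes and all tested genes with a window. The E2F bar is at 38.1% for S phase genes and at 0 for G2 and M phase genes, while the CHR bars are at 33.3% and 88.9%.

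The ratio of coverage to FPKM, which scales with the bases aligned, was 6.085 and 6.274 in controls and 5.843 and 5.931 in knockouts, and 16138 to 17761 genes of each library had FPKM above 0.5. Skiv2l (ENSMUSG00000040356.16) had FPKM of 19.3 and 19.1 in controls and 10.8 and 8.56 in knockouts (log2 fold change −0.92, standard error 0.12, adjusted p = 0.00368, limma), and without control 1 or control 2 it was at −0.92 and −0.93 and missed the threshold. FPKM values are fragments scaled by the authors for gene length and library size, and fold changes are knockout minus control on the log2(FPKM + 1) scale, on which genes of low FPKM show less than their true change. A gene is said to have risen or fallen where limma gave an adjusted p under 0.05 over the 13609 genes. By that rule 1223 genes rose and 3455 fell, 71.9% of the tested genes had a negative fold change, and the median log2 fold change of all tested genes was −0.20. It was −0.03 after the 4 libraries were scaled to 1 median, so the counts of replication and division genes are also given on that scale.

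Genes of DNA replication and cell division were lower in knockout epidermis in nearly every case. Of the 49 genes, 37 fell and 0 rose in the limma fit, beside 25.4% of all tested genes that fell and 8.99% that rose. At an unadjusted p under 0.05 the number higher was also 0, and 22 S phase genes and 17 G2 and M phase genes were lower. The share of all tested genes past that unadjusted threshold was not taken, here or below, so those counts have no background. In 47 of the 49 both knockouts lay below both controls, which was so for 55.3% of all tested genes, while 18.2% had both knockouts above both controls. The exceptions, whose groups overlapped, were Ccne1 and Cdc20. Once the libraries were scaled to 1 median, 21 of the 49 fell and 0 rose, beside 11.9% of all tested genes that fell and 13.9% that rose. In bulk epidermis, a smaller share of dividing cells and less of each RNA per dividing cell cannot be told apart. In P0 pups of this knockout genotype the study reported a thicker epidermis and, by Ki67 staining and cell-cycle flow cytometry, more proliferating basal keratinocytes. The Ki67 staining was of protein, and the flow cytometry gave cell-cycle distributions of keratinocytes. FPKM is RNA of the whole epidermis scaled to the size of the library, and how these measures relate was not tested. Markers of other cells moved as well. Of 10 hair follicle markers 4 fell and 1 rose, of 8 leukocyte markers 4 fell, and of 7 red blood cell markers 4 fell. Of 7 fibroblast markers 2 fell, and of 6 melanocyte markers 0 fell and 1 rose.

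**Figure D2:**
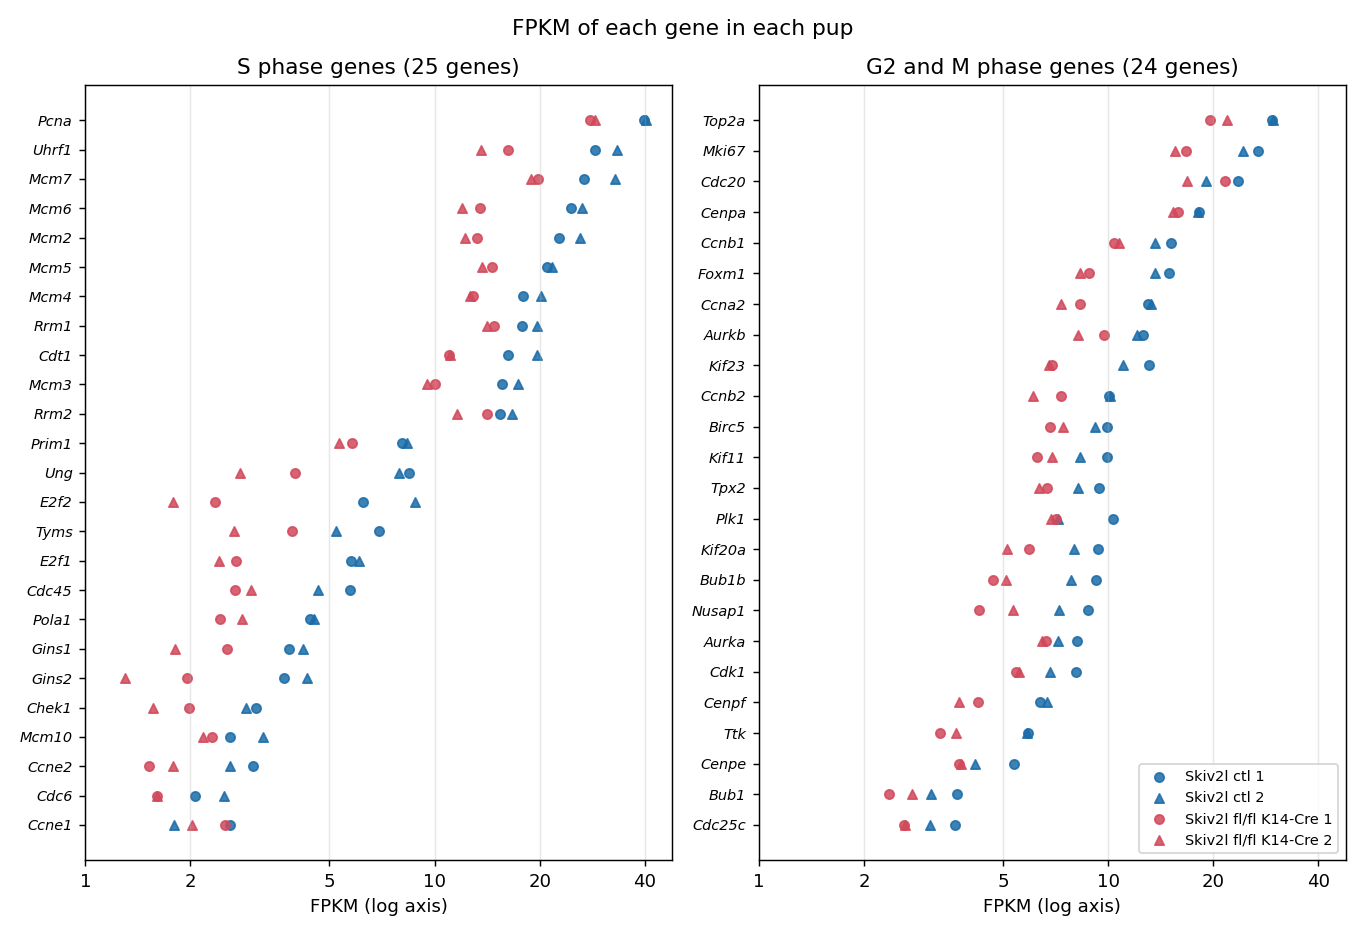
FPKM of each S phase gene (left) and each G2 and M phase gene (right) in each pup, on a log axis, with controls in blue, knockouts in red, circles for pup 1 and triangles for pup 2 of each genotype. The red symbols lie to the left of both blue symbols for every gene except Ccne1 and Cdc20.

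The S phase genes had the larger median change. Of 25, 21 fell, 4 did not pass the test and the median log2 fold change was −0.60, with a range from −1.46 for E2f2 to 0.03 for Ccne1. Their summed FPKM was 313 and 341 in controls and 206 and 191 in knockouts, which is 60.7% of the control sum. Gene by gene, the median S phase gene was at 59.6% of its control mean, against 84.4% for the median tested gene. After scaling to 1 median, 14 of the 25 fell, beside 11.9% of all tested genes that fell and 13.9% that rose on that scale, 24 had a negative fold change and the median was −0.43. Ccne1 was the 1 gene above 0 on either scale. With quantile normalization, 13 fell beside 14.1% of all tested genes, 12.4% having risen.

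Of the 8 licensing genes 7 fell, with a median log2 fold change of −0.62, and 7 also did after scaling to 1 median. For this and each later role group the shares of all tested genes that fell are 25.4%, and 11.9% after scaling. Mcm6 (GRCm38, chromosome 1, 128331590 to 128359664, minus strand), a subunit of the hexameric helicase, had FPKM of 24.5 and 26.5 in controls and 13.4 and 12.0 in knockouts (log2 fold change −0.95, standard error 0.10, adjusted p = 0.00161). Mcm2, another subunit of the ring, was at 22.7 and 26.1 against 13.3 and 12.2 (−0.88, standard error 0.11, adjusted p = 0.00247). In both genes the pups of a genotype were close to each other and the groups lay far apart. Mcm7, the most abundant of the 8 by FPKM, was at 26.7 and 32.9 in controls and 19.7 and 18.9 in knockouts (−0.59, adjusted p = 0.0129). All 6 subunits of the ring fell, from −0.54 for Mcm4 and −0.56 for Mcm5 to −0.69 for Mcm3 and the −0.95 of Mcm6. Of the transcripts of Mcm7, 13.2% of 75-base stretches also occur in overlapping or related genes. Cdt1, which brings the helicase to the origin, fell as well, with FPKM of 16.2 and 19.6 against 11.0 and 11.1 (−0.65, adjusted p = 0.0093). Cdc6, its partner in loading, did not pass the test at 2.06 and 2.49 in controls and 1.61 in each knockout (−0.32, standard error 0.13, adjusted p = 0.106), although both knockouts lay below both controls.

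Of the 4 genes that activate the loaded helicase, 3 fell, and 2 (Gins2 and Cdc45) after scaling to 1 median. Gins2, a subunit of the GINS complex, had FPKM of 3.72 and 4.31 in controls and 1.96 and 1.30 in knockouts (−0.94, standard error 0.16, adjusted p = 0.00863). As many as 64.7% of the 75-base stretches of its transcripts also occur in Gse1, which overlaps it on the other strand, so its value is uncertain. Its fellow subunit Gins1 was at 3.83 and 4.21 against 2.55 and 1.81 (−0.67, adjusted p = 0.0205). Cdc45, which travels with the helicase, was at 5.72 and 4.65 against 2.69 and 2.99 (−0.68, standard error 0.13, adjusted p = 0.0128). These 3 genes were low throughout, and in each the higher knockout stayed below the lower control. Mcm10, which takes part in the same step, did not pass the test (−0.27, adjusted p = 0.166).

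The 3 DNA synthesis genes fell, but after scaling to 1 median Pola1 alone did, with Pcna and Prim1 at adjusted p = 0.0503 and 0.0752. Pcna, the sliding clamp that holds polymerases on DNA and the S phase gene with the highest FPKM, was at 39.9 and 40.3 in controls and 27.8 and 28.8 in knockouts (−0.49, standard error 0.080, adjusted p = 0.00699). Here the gap between the genotypes was many times that between the pups of either, and 13.9% of its 75-base stretches also occur in the pseudogene Pcna-ps2. Pola1 and Prim1, the catalytic subunit of polymerase alpha and the primase that starts each strand, were at −0.60 and −0.49 (adjusted p = 0.0139 and 0.0163). Pola1 had FPKM of 4.40 and 4.52 in controls and 2.43 and 2.81 in knockouts.

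Genes that supply nucleotides or keep uracil out of DNA were less uniform, with 3 of 4 falling and 1, Ung, after scaling to 1 median. Ung, the glycosylase that removes uracil from DNA, was at 8.46 and 7.88 in controls and 3.98 and 2.77 in knockouts (−1.08, standard error 0.16, adjusted p = 0.00458). Tyms, which makes thymidylate, was at 6.94 and 5.21 against 3.90 and 2.66 (−0.73, standard error 0.19, adjusted p = 0.0305). The 2 subunits of ribonucleotide reductase, which makes deoxynucleotides, had the smallest fold changes of the group. Rrm1 was at 17.8 and 19.7 against 14.8 and 14.2 (−0.35, adjusted p = 0.0356) and Rrm2, whose level peaks in S phase, at 15.4 and 16.7 against 14.1 and 11.6 (−0.31, adjusted p = 0.0945). After scaling to 1 median neither subunit passed the test (adjusted p = 0.277 and 0.519).

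The 4 G1 to S control genes held both ends of the range, with 3 falling and 2 (E2f1 and E2f2) after scaling to 1 median. E2f2 (GRCm38, chromosome 4, 136172394 to 136196057, plus strand), an activator of the S phase promoters, was at 6.24 and 8.78 in controls and 2.35 and 1.78 in knockouts, the largest fall among the 49 (−1.46, standard error 0.18, adjusted p = 0.00285). E2f1, of the same family, was at 5.76 and 6.08 against 2.71 and 2.41 (−0.96, standard error 0.12, adjusted p = 0.00254). The cyclins that partner CDK2 at the G1 to S transition were not alike. Ccne2 fell, at 3.01 and 2.60 against 1.53 and 1.78 (−0.52, adjusted p = 0.0292), whereas Ccne1 was at 2.60 and 1.80 against 2.50 and 2.02, with the knockouts between the controls (0.03, standard error 0.17, adjusted p = 0.887). The difference between the 2 cyclins was not tested, and 12.8% of the 75-base stretches of Ccne2 also occur in Ints8. Of the remaining S phase genes, Uhrf1, which carries DNA methylation over to the new strand, was at 28.8 and 33.2 in controls and 16.2 and 13.5 in knockouts (−1.01, standard error 0.12, adjusted p = 0.00256). Chek1, the kinase of the replication checkpoint, was at 3.07 and 2.89 against 1.98 and 1.57 (−0.52, adjusted p = 0.0298), and missed the threshold after scaling to 1 median (adjusted p = 0.0889).

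The G2 and M phase genes had the smaller median change. Of 24, 16 fell and 8 did not pass the test, with a median log2 fold change of −0.42 and a range from −0.73 for Kif23 to −0.15 for Cdc20. Their summed FPKM was 285 and 258 in controls and 195 and 189 in knockouts, or 70.7% of the control sum, and the median gene was at 72.2% of its control mean. After scaling to 1 median, 7 of the 24 fell, beside the same 11.9% of all tested genes, and the median was −0.23. On that scale 23 had a negative fold change, and Cdc20 turned to 0.057. With quantile normalization 8 of the 24 fell, beside 14.1% of all tested genes that fell and 12.4% that rose.

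**Figure D3:**
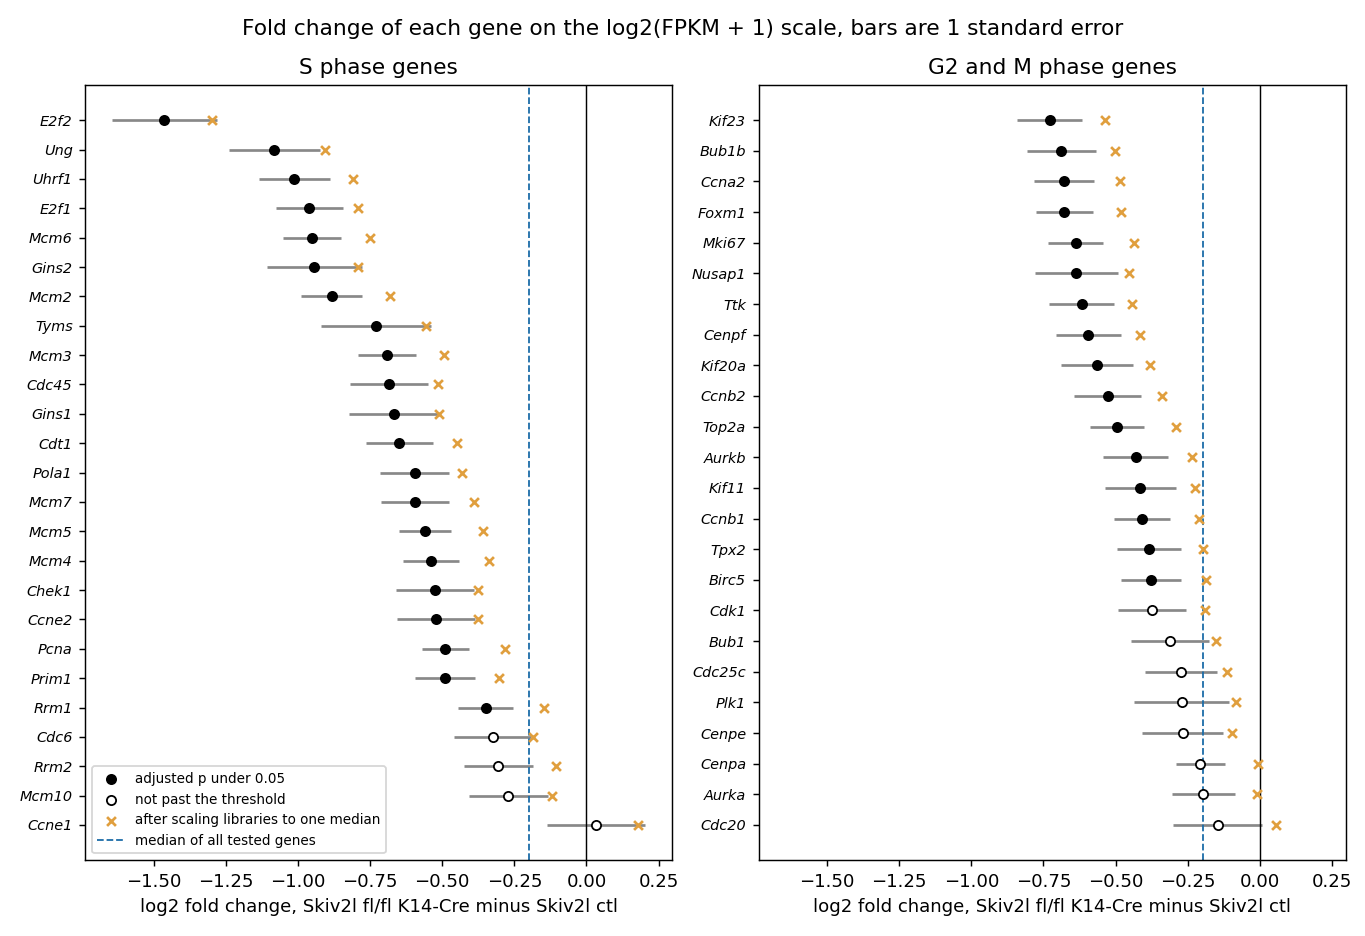
Log2 fold change of each gene, knockout minus control, on the log2(FPKM + 1) scale with a bar of 1 standard error, filled where limma gave an adjusted p under 0.05, with a cross for the value after scaling the libraries to 1 median and a dashed line at the median of all tested genes, −0.20. S phase genes (left) run from −1.46 to 0.03 and G2 and M phase genes (right) from −0.73 to −0.15.

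Mki67 and Top2a, the markers most used for dividing cells, both fell, and Mki67 alone after scaling to 1 median (adjusted p = 0.0218, against 0.0758 for Top2a). Mki67 (GRCm38, chromosome 7, 135689784 to 135716361, minus strand), which encodes the Ki67 protein that coats mitotic chromosomes, was at 26.9 and 24.4 in controls and 16.7 and 15.5 in knockouts (−0.64, standard error 0.096, adjusted p = 0.00514). Top2a, which untangles replicated DNA, was at 29.5 and 29.7 against 19.6 and 21.9 (−0.50, standard error 0.092, adjusted p = 0.0107). Relative to Trp63, a transcription factor of basal keratinocytes, Mki67 FPKM was 30.2% and 24.4% in controls and 19.5% and 16.7% in knockouts. Relative to the basal integrin Itga6 it was 23.6% and 20.6% against 15.4% and 15.8%, again with both knockouts below both controls. Such a ratio depends on the reference. The basal marker Krt15 fell by more than Mki67 (log2 fold change −1.89), while the basal markers Krt14 and Itgb4 rose (2.05 and 0.60).

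Of the 7 cyclins, CDK and their regulators, 4 fell, and after scaling to 1 median 2 did, Ccna2 and Foxm1. Ccna2, the cyclin of S phase and G2, was at 13.0 and 13.2 in controls and 8.32 and 7.33 in knockouts (−0.68, standard error 0.10, adjusted p = 0.00537). Foxm1, a transcription factor that drives mitotic genes, was at 15.0 and 13.6 against 8.80 and 8.31 (−0.68, adjusted p = 0.00481). The mitotic cyclins Ccnb1 and Ccnb2 fell by less, at −0.41 and −0.53 (adjusted p = 0.0242 and 0.0178). Cdk1, the kinase that both activate, was at 8.09 and 6.81 against 5.45 and 5.56 and just missed the threshold (−0.37, standard error 0.12, adjusted p = 0.0534). Cdc25c, the phosphatase that activates CDK1, did not pass either (−0.27, adjusted p = 0.136). Cdc20, which directs the anaphase-promoting complex to its targets, was at 23.6 and 19.1 in controls and 21.7 and 16.8 in knockouts, so that knockout 1 exceeded control 2 (−0.15, standard error 0.15, adjusted p = 0.480). Shared or overlapping sequence makes up 10.8% of the 75-base stretches of Ccna2, 18.9% of those of Ccnb1 and 10.7% of those of Cdc25c.

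Among the 7 genes of mitotic kinases and the spindle checkpoint, 4 fell and 3 did not pass the test, and after scaling to 1 median 2 fell, Bub1b and Ttk. Bub1b, which encodes the checkpoint protein BUBR1, was at 9.21 and 7.82 in controls and 4.68 and 5.12 in knockouts (−0.69, standard error 0.12, adjusted p = 0.00885). Ttk, the kinase at the head of that checkpoint, was at 5.89 and 5.87 against 3.30 and 3.68 (−0.62, standard error 0.11, adjusted p = 0.00987). Aurkb and Birc5, which encode the kinase and the survivin subunit of the chromosomal passenger complex, fell by 0.43 and 0.38 on the log2 scale (adjusted p = 0.0309 and 0.0366), with Aurkb at 12.6 and 12.1 against 9.71 and 8.18. The kinases Plk1, Aurka and Bub1 were at −0.27, −0.20 and −0.31 (adjusted p = 0.238, 0.201 and 0.121). In Plk1 the controls themselves differed, at 10.3 and 7.18, and the knockouts at 7.10 and 6.84 lay just under the lower control.

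Of the 3 centromere genes 1, Cenpf, fell on either scale, and their median log2 fold change, −0.27, was the smallest of the mitotic groups. Cenpf, a large kinetochore protein, was at 6.40 and 6.67 in controls and 4.25 and 3.74 in knockouts (−0.59, standard error 0.11, adjusted p = 0.0115). Cenpa, the histone variant that marks centromeres, was at 18.2 and 18.1 against 15.9 and 15.4 (−0.21, standard error 0.086, adjusted p = 0.109), and the kinetochore motor Cenpe at 5.39 and 4.15 against 3.75 and 3.79 (−0.27, adjusted p = 0.178). Cenpa was at −0.0048 after scaling to 1 median. All 5 genes of the spindle motors and their partners fell, with a median of −0.56, but after scaling to 1 median Kif23 alone did (adjusted p = 0.0211), the other 4 lying between 0.0735 for Kif20a and 0.250 for Tpx2. Kif23, a motor of the central spindle that is needed for cytokinesis, was at 13.1 and 11.0 in controls and 6.92 and 6.80 in knockouts (−0.73, standard error 0.11, adjusted p = 0.00589). Nusap1, which bundles spindle microtubules, was at 8.77 and 7.25 against 4.27 and 5.34 (−0.64, standard error 0.14, adjusted p = 0.0200). Kif20a, another motor of cytokinesis, fell by 0.56 on the log2 scale (adjusted p = 0.0186), but 23.3% of its 75-base stretches also occur in Cdc23, which overlaps it. Kif11, the motor that separates the spindle poles, and Tpx2, which activates Aurora A on the spindle, were at −0.41 and −0.38 (adjusted p = 0.0443 and 0.0418).

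The 2 phases were set side by side in each pup without a test, since members are not replicates and 2 pups a group allow no two-sided permutation p below 0.333. Relative to the mean of the controls, the mean log2(FPKM + 1) of the S phase genes was −0.03 and 0.03 in controls and −0.59 and −0.71 in knockouts. That of the G2 and M phase genes was 0.08 and −0.08 in controls and −0.44 and −0.47 in knockouts, and that of all tested genes −0.01 and 0.01 against −0.13 and −0.17. Both phases were thus lower in each knockout than in either control, by more than the gap between the controls. The S phase mean minus the G2 and M phase mean was −0.18 and 0.04 in controls and −0.22 and −0.32 in knockouts. The knockout mean of this difference minus the control mean was −0.19, with a pooled SD between pups of 0.12. Control 1 and knockout 1 were close, and the phases are not shown to differ in their fall.

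**Figure D4:**
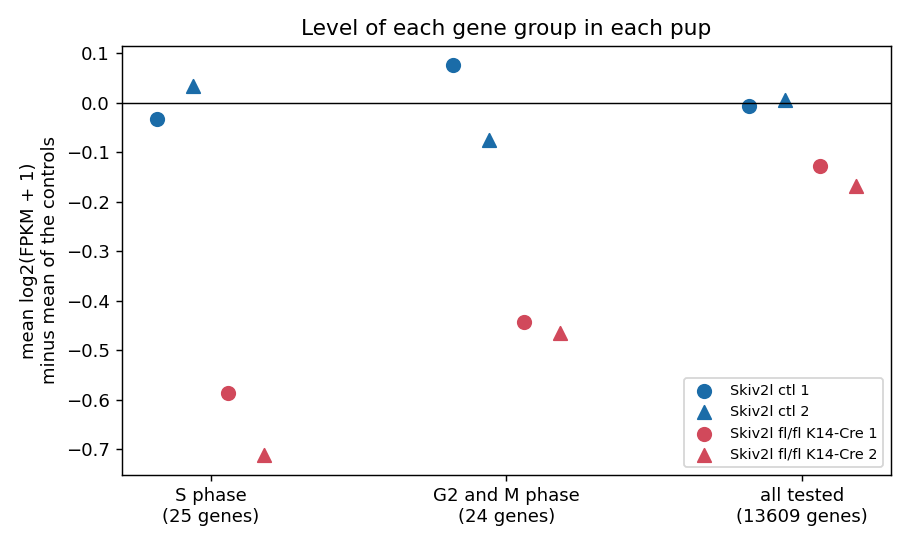
Mean log2(FPKM + 1) of the S phase genes, the G2 and M phase genes and all tested genes in each pup, minus the mean of the controls, with 1 symbol per pup. The knockouts are at −0.59 and −0.71 for S phase, −0.44 and −0.47 for G2 and M phase, and −0.13 and −0.17 for all tested genes.

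The controls differed from each other by phase. Control 2 was above control 1 in 19 of 25 S phase genes (76%, median log2 difference 0.11) and in 4 of 24 G2 and M phase genes (16.7%, median −0.17), while over all tested genes it was above in 54.2%. The wider lists of the same processes did likewise, with control 2 above in 39 of 55 other replication genes and in 15 of 78 other mitosis genes. Between the knockouts, pup 2 was above pup 1 in 5 of 25 S phase genes and 11 of 24 G2 and M phase genes, beside 42.8% of all tested genes. Each number compares single pups and has no replicate.

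The calls rest on both controls and on the filter. Without control 1, 8 S phase genes and 0 G2 and M phase genes fell (9 of the latter were lower at an unadjusted p under 0.05), beside 5.92% of all tested genes that fell and 3.65% that rose. Without control 2, 5 and 2 fell, beside 5.95% that fell and 3.98% that rose. Without knockout 1 the falls numbered 20 and 11, beside 23% of all tested genes that fell and 8.42% that rose, and without knockout 2 they numbered 17 and 12, beside 18.4% and 8.27%. With no filter on low values, which takes the test to 21921 genes, 4 S phase genes and 1 G2 and M phase gene fell, beside 4.23% of all genes that fell and 2.17% that rose. The medians moved little without a library: over these fits they ran from −0.63 to −0.56 for S phase and from −0.50 to −0.37 for G2 and M phase.

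Other genes of the same processes had medians nearer to that of all tested genes. Of 55 other replication genes, 25 (45.5%) fell and 0 rose in the limma fit (0 higher at an unadjusted p under 0.05), with a median log2 fold change of −0.38, and of 78 other mitosis genes 23 (29.5%) fell and 0 rose (1 higher at an unadjusted p under 0.05), with a median of −0.30. Of all tested genes 25.4% fell, so the share of the mitosis list is near the background. After scaling to 1 median 9 of the 55 (16.4%) and 8 of the 78 (10.3%) fell, the latter with 1 rise, beside 11.9% of all tested genes. Without control 1 or without control 2 the falls numbered 2 in each list (3.64% and 2.56%), under the 5.92% and 5.95% of all tested genes. Pclaf, a PCNA-binding protein, had the largest fall of the replication list, at 8.74 and 9.77 in controls and 3.61 and 2.99 in knockouts (−1.26, adjusted p = 0.00136). Cdca7, which helps to remodel chromatin for DNA methylation, followed at 16.5 and 15.6 against 7.76 and 7.95 (−0.94, adjusted p = 0.00132). Of the mitosis list, Pimreg was at 7.42 and 7.44 against 3.34 and 2.61 (−1.09, adjusted p = 0.00245) and the centromere protein Cenpm at 2.69 and 3.61 against 1.37 and 1.05 (−0.90, adjusted p = 0.00985). In each of these genes both knockouts were below both controls.

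**Figure D5:**
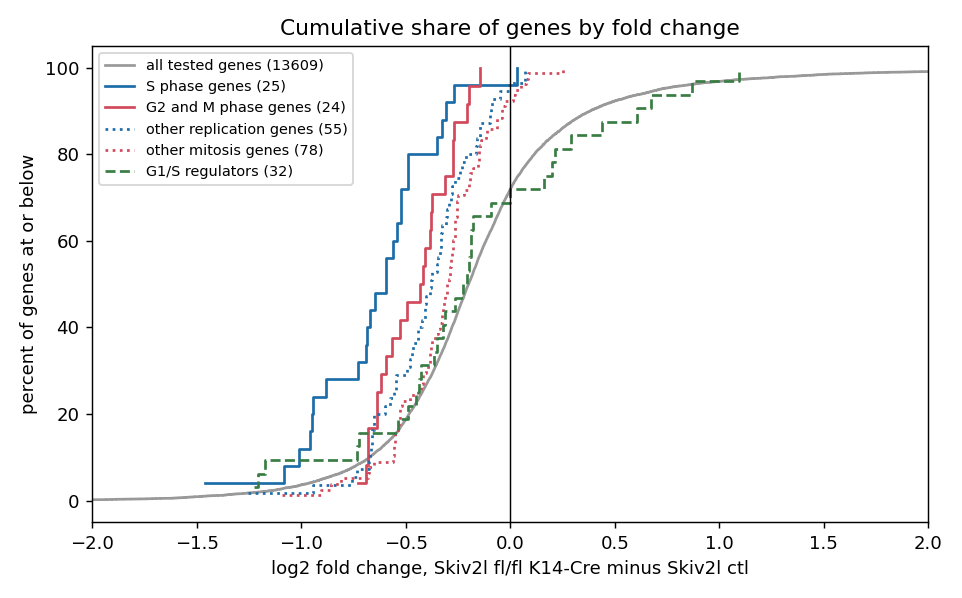
Cumulative percent of genes at or below each log2 fold change, knockout minus control, for the S phase genes, the G2 and M phase genes, the 3 wider lists and all 13609 tested genes. The medians, where the curves cross 50%, are −0.60, −0.42, −0.38 (other replication), −0.30 (other mitosis), −0.22 (G1/S regulators) and −0.20 (all tested).

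The regulators of the G1 to S step moved in both directions. Of 32 tested (Cdkn2a, the remaining listed gene, was not tested), 12 fell (37.5%) and 5 rose (15.6%), beside 25.4% and 8.99% of all tested genes, with a median of −0.22. After scaling to 1 median 6 fell and 6 rose (18.8% each), beside 11.9% and 13.9%. Without control 1, 4 fell and 2 rose (12.5% and 6.25%, beside 5.92% and 3.65%), and without control 2, 4 fell and 3 rose (12.5% and 9.38%, beside 5.95% and 3.98%). Ccnd2, a D-type cyclin, was at 97.0 and 113 in controls and 48.6 and 41.2 in knockouts (−1.21, adjusted p = 0.00126). Mycn, a MYC family transcription factor, fell by 1.23 on the log2 scale (adjusted p = 0.0248), but its controls, at 9.74 and 20.4, were far apart, with the knockouts at 5.49 and 5.46. Among the 5 that rose, the CDK inhibitor Cdkn1c was at 3.29 and 3.61 in controls and 7.74 and 9.32 in knockouts (1.09, standard error 0.13, adjusted p = 0.00227). Cdk6, a kinase partner of the D-type cyclins, was at 20.3 and 22.5 against 40.7 and 39.2 (0.87, standard error 0.091, adjusted p = 0.0016). Its paralogue Cdk4 fell, at 82.7 and 94.6 against 52.1 and 53.6 (−0.73, adjusted p = 0.00311), so the 2 D-cyclin kinases moved in opposite directions. The other 3 that rose were Lin9, a MuvB subunit, E2f7, a repressor of the E2F family, and the CDK inhibitor Cdkn2b, at 0.68, 0.61 and 0.44. Cdkn2c, an inhibitor of CDK4 and CDK6, fell, at 7.62 and 7.71 against 3.08 and 2.63. Cdk4, Cdkn2c, Lin9, E2f7 and Cdkn2b were picked out after their values were seen.

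Fold changes were also set beside the motifs. The 8 S phase genes with the E2F motif in a window had a median log2 fold change of −0.62 and the 13 without it −0.52. Split by the CHR element, the S phase medians were −0.68 with it and −0.595 without it. Split by the NF-Y box they were −0.595 with it and −0.65 without it. In the G2 and M phase genes the 16 with a CHR element had a median of −0.41, and the 2 without it −0.47. These are descriptions of few genes, and a motif elsewhere in the gene would not have been seen.

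Markers of the cells in the epidermis moved in both directions. Of all tested genes 25.4% fell and 8.99% rose, so 2 falls in a list of 7 markers are near that share. Keratinocyte markers were high in all 4 libraries, as the tissue label has it, with Krt5 at 2003 and 2075 in controls and 1761 and 1759 in knockouts. Of 7 basal keratinocyte markers, 2 rose (Krt14 and Itgb4), 1 fell (Krt15) and the summed FPKM was 4729 and 4891 against 9798 and 9795. Krt14 alone was at 1736 and 1812 in controls and 7381 and 7312 in knockouts, and the sum of the other 6 was 2993 and 3079 against 2418 and 2483. The study reported expanded K14, K5 and K10 staining, which is of protein, in P0 pups of this genotype. Krt10 FPKM was lower, at 9268 and 10220 in controls and 6378 and 8081 in knockouts. Neither Krt10 (log2 fold change −0.44, adjusted p = 0.0760) nor Krt5 (−0.21, adjusted p = 0.130) passed the limma test. How the staining relates to the RNA was not tested. Trp63, with 88.9 and 99.9 against 85.7 and 92.7, did not pass the test (−0.08, adjusted p = 0.528). Of 7 suprabasal markers, 1 rose and 2 fell, with sums of 27406 and 28429 against 19145 and 22096.

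Of 10 hair follicle markers, 1 rose (Krt17) and 4 fell, among them Shh, a signal of the growing follicle, at 11.7 and 12.6 in controls and 2.39 and 2.82 in knockouts. The hair follicle sum was 635 and 671 against 1559 and 1388, and without Krt17 it was 138 and 152 against 77.3 and 87.1. The summed markers of fibroblasts, leukocytes and red blood cells were also lower in both knockouts. Of 7 fibroblast markers 5 were tested and 2 fell, with sums of 61.6 and 69.3 against 22.0 and 25.1, of which Dcn made up 57.0 and 62.7 against 16.9 and 21.4 while Col1a1 was at 0.585 to 1.27 in all 4. Of 8 leukocyte markers 6 were tested and 4 fell (sums 28.4 and 39.4 against 15.7 and 13.8), and of 7 erythroid markers 5 were tested and 4 fell (134 and 125 against 62.1 and 80.8). Melanocyte markers, 6 in number, summed to 52.9 and 59.6 against 55.5 and 69.5, with 1 rise. Of 6 endothelial markers 1 was tested, the sum was 0.617 to 1.03 and Emcn was at 0 in all libraries, and none of 6 muscle markers passed the filter. The part of any of these cells in the lower replication and division genes was not tested.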

How the data were processed

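Total RNA of the epidermis of 4 P0 pups was isolated by the authors with a column kit and DNase, kept where the RNA integrity number was high, and sequenced at BGI. Reads were processed by the authors with the Astrocyte RNASeq workflow; the aligner, counter and strandedness are not given in the sources used here, and the submitters' processing notes name GRCm38. The authors deposited 1 table per pup, which holds 3 units. FPKM, as deposited, is scaled for the length of a gene and the size of its library. TPM, as deposited, has 1 total in every library and served as an alternative. Coverage, as deposited, entered only through its ratio to FPKM, 5.843 to 6.274, a measure of depth. Read counts were not used, and counting error is therefore not given.

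FPKM was summed per gene identifier. Protein-coding genes were taken from GENCODE M21 (21921; 54723 of 54752 identifiers matched without version), of which 13609 passed the filter of the study (FPKM over 0.5 in 1 or more libraries). Their log2(FPKM + 1) values were compared by limma 3.58.1 (R 4.3.3; lmFit, trended eBayes, two-sided tests), and Benjamini-Hochberg adjustment took in all of them. The study names iDEP and no pseudocount. The fit was tested on simulated data. Pups were grouped by the genotype label. The p-values rest on the spread between these pups only, with the variance of each gene drawn toward a trend over all genes in the fit. They therefore also depend on which genes are taken in.

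The members and the lists were chosen with earlier results of these data known. Values per pup are given for Skiv2l, Mki67, Pcna and, in each role group, at least the 2 members with the largest absolute fold change and the most abundant one. From the 3 wider lists the 2 largest rises and the 2 largest falls past the threshold without overlap are named. Motifs were searched in RefSeq promoter windows, and 75-base stretches shared with other genes were counted on GENCODE M21 transcripts. Alternatives were a pseudocount of 0.1, FPKM above 1 in at least 2 libraries, no filter, all gene types, TPM, median scaling, quantile normalization, no trend, the replicate number as a block, and leaving out each library.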

Additional observations from a re-analysis of the deposited data

How the results depend on the processing

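With a pseudocount of 0.1 all 49 members kept their direction and their side of the threshold, with TPM or the stricter filter 48 did, without a trend 47 and with all gene types 44. Without a filter on low values, 4 S phase, 1 G2 and M phase, 3 other replication and 1 other mitosis genes fell, 2 G1/S regulators rose and 1 fell, and of all 21921 genes 475 rose and 927 fell. Skiv2l was then at −0.92 and missed the threshold, as it did without control 1 (−0.92) or control 2 (−0.93), and its range without 1 library was −1.08 to −0.77. After median scaling 1894 genes rose and 1623 fell, and the lists had 14 S phase, 7 G2 and M phase, 9 other replication and 8 other mitosis falls with 1 rise, and 6 G1/S falls, with medians of −0.43 for S phase and −0.23 for G2 and M phase. After quantile normalization 1914 genes fell, with 13, 8, 10 and 8 falls in these lists, 1 rise in the last, 6 G1/S falls and a median of −0.26 for G2 and M phase. Both scalings move the median of all genes close to 0, by construction.

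Leaving out 1 library in turn gave 497 to 1146 rises and 805 to 3135 falls over all tested genes, 5 to 20 falls among S phase genes, 0 to 12 among G2 and M phase genes, 2 to 20 among other replication and 2 to 20 among other mitosis genes, and 2 to 5 rises and 4 to 10 falls among G1/S regulators. The low ends came without a control, where the lone control is assumed to vary like the knockouts. Ccne1 ran from −0.15 (without control 2) to 0.22 (without control 1), negative also without knockout 1 (−0.073). Cdc20 was at 0.057 after median scaling and ran from −0.32 (without knockout 1) to 0.029 (without knockout 2), positive also without control 1 (0.00031). The cause of these changes was not tested. Pups with the same replicate number did not deviate together (r = −0.077 over 13609 genes). With 2 pups a group this cannot settle whether the numbers pair them. With the replicate number as a block, 21 S phase and 15 G2 and M phase genes fell, and 1264 genes rose and 3393 fell. Leaving out the 8 members with more than 10% shared 75-base stretches, an alternative chosen after seeing the data, 17 of 21 S phase genes (median −0.65) and 13 of 20 G2 and M phase genes (median −0.42) fell.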
